A study of Drosophila melanogaster
Mus musculus with 21 samples.

Results

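Cadherins and protocadherins were followed through the loss of Polycomb repression in mouse embryonic stem cells. All genes whose symbol begins with Pcdh, or with Cdh and a digit, were taken, which gave 71 genes of the 19397 symbols in the deposited tables. Each of the 71 had a single entry, and that entry was present in all 5 tables. They comprised 36 clustered protocadherins (2 of the Pcdha, 16 of the Pcdhb and 18 of the Pcdhg cluster), 12 protocadherins outside the clusters, 18 classical cadherins and 5 other cadherins.

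Cadherins are calcium-dependent adhesion proteins at the cell surface. Classical cadherins bind the same cadherin on a neighbouring cell and are tied to actin through catenins, and the set of cadherins a cell carries differs between epithelia, mesenchyme and neurons. Protocadherins form the largest branch of the family and are known best from the nervous system. Those of the Pcdha and Pcdhg clusters are made from many alternative first exons, each with its own promoter, that are spliced to a few constant exons at the end of the cluster, whereas each Pcdhb gene is a separate gene of a single coding exon. Polycomb repressive complexes hold many developmental genes silent in stem cells: PRC1 places ubiquitin on histone H2A and PRC2 methylates histone H3.

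Nuclear RNA was sequenced from 7 groups of 3 biological replicates each. PRC1deg cells, derived from E14 and carrying Rosa26::Tir1, Ring1A-/- and AID-Ring1B, were given 500 µM auxin for 2, 4, 8 or 24 h, which removes the tagged RING1B protein, and were compared with untreated PRC1deg cells. The Ring1A deletion is shared by all 5 of these groups, controls included. PRC2deg cells, derived from E14 and carrying Pcgf2-HaloTag and dTAG-Suz12, were given 100 nM dTAG-13 for 2 h, which removes the tagged SUZ12 protein, and were compared with untreated PRC2deg cells. All groups were grown in serum with leukemia inhibitory factor, and Drosophila SG4 cells were added to each as a spike-in. The 2 lines differ in the protein removed, the compound, the library kit and the read length, which cannot be told apart.

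The authors' deposited tables give a log2 fold change and an adjusted p for each entry in a comparison. Neither errors nor values of single libraries are held, so the spread between replicates enters only through the adjusted p, and whether the libraries of 2 groups overlap cannot be shown. Genes with an adjusted p below 0.05 and a change of over 1.5-fold were called higher or lower. Untreated reads below are the authors' untreated mean per kilobase times the entry length, and add up to 30450536 in PRC1deg and 29474239 in PRC2deg cells. How deeply each library was sequenced is not known. Fold changes lay above 0 as a whole: over entries with at least 50 untreated reads their log2 medians were 0.15, 0.40, 0.50 and 0.24 at 2, 4, 8 and 24 h, over the authors' deposited tables. The labels' descriptions end in a library number, which starts again at 24 h, and what it stands for is not stated. Of 10 stem cell markers 9 were measured, with 124079 summed untreated reads in PRC1deg cells, and 0 of them were called at any time by the authors' DESeq2 values. The degrons act on protein, so RNA of the targets does not check the labels: Rnf2, which encodes RING1B, was called higher at 4 and 8 h, with 0.38, 0.94, 0.74 and 0.34 at the 4 times in the authors' deposited table. The Ring1 entry had 202.1 untreated reads in PRC1deg cells, and the deleted part of that gene is not stated. In bulk RNA, more cells that express a gene and more RNA per cell cannot be told apart.

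After auxin, many cadherin and protocadherin genes outside the 3 clusters were higher, and no member was lower past the threshold. Of the 71 genes, 14, 29, 33 and 18 were called higher at 2, 4, 8 and 24 h. Among all tested entries the same rule called 5.55%, 16.1%, 25.7% and 11.5% higher. An adjusted p was given for 71, 66, 61 and 66 of the members, so that 19.7%, 43.9%, 54.1% and 27.3% of those tested were higher. The calls include 9 Pcdhg entries at 4 h and 13 at 8 h, which may share reads. By the authors' DESeq2 values 0 of the 71 were called lower at any time, where 0.255%, 0.13%, 0.0869% and 0.612% of all entries were called lower at 2, 4, 8 and 24 h, and 0 were lower by adjusted p alone. The tables hold adjusted p-values only, so no count by unadjusted p can be given. At 2 h all 14 calls lay outside the clusters: 6 of 12 non-clustered protocadherins, 6 of 18 classical cadherins, 2 of 5 other cadherins and 0 of 36 clustered protocadherins. Of the 38 members with 50 or more untreated reads, 10, 20, 26 and 11 were higher at the 4 times, and 4.16%, 14.8%, 25.6% and 9.08% of all such entries. Over the 4 times 36 of the 71 genes were never called higher, 21 of them in the clusters. Of these 21, 16 were Pcdhb genes, which had few reads. The share of all entries that were never called was not counted, so 36 of 71 is not set against it.

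**Figure D1:**
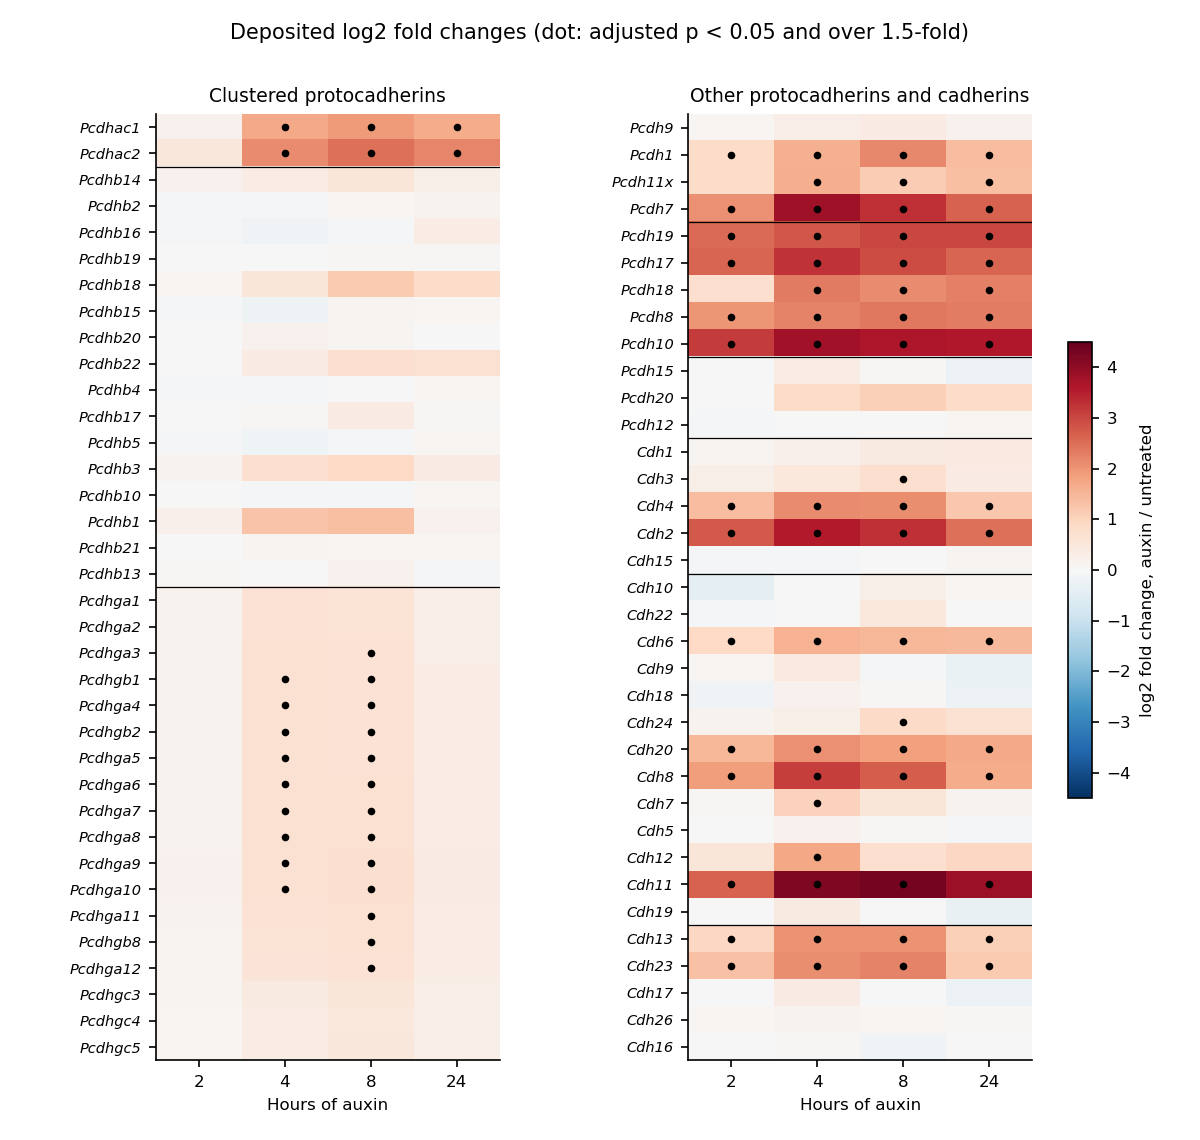
Log2 fold change of each of the 71 genes (rows, split by subfamily) after 2, 4, 8 and 24 h of auxin relative to untreated PRC1deg cells, from the authors' deposited table, with a dot where the gene was called. Rows with dots at all 4 times, 14 in number, are all in the right panel, and the Pcdhb rows have no dot.

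The cadherin genes with the highest untreated levels had small fold changes. Cdh1, which encodes the E-cadherin that holds epithelial and embryonic stem cells together, had the highest untreated level of all 71 genes, at 145.1 normalised reads per kilobase in PRC1deg cells. Its log2 fold changes in the authors' deposited table were 0.11, 0.24, 0.42 and 0.43 at 2, 4, 8 and 24 h, with adjusted p-values between 0.14 and 0.77, which gave no call. Cdh3, which encodes P-cadherin of epithelia and placenta, stood second at 48.0 reads per kilobase. The authors' deposited table gave Cdh3 changes of 0.25, 0.48, 0.76 and 0.38, of which only the one at 8 h was called (adjusted p = 0.011), and that call ended when fold changes were centred on the median of entries with 50 or more reads (0.27).

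N-cadherin rose early. Cdh2, which encodes the cadherin of neural and mesenchymal cells, had 1.58 untreated reads per kilobase in PRC1deg cells, spread over 220.2 kb. In the authors' deposited table its log2 fold changes were 2.75, 3.56, 3.30 and 2.48 at 2, 4, 8 and 24 h, equal to 6.74-, 11.8-, 9.83- and 5.60-fold, with adjusted p-values of 1.5e-13, 5.4e-23, 5.4e-20 and 1.2e-11. Cdh4, which encodes R-cadherin of the retina and brain, also rose at every time, by 1.40, 2.11, 2.08 and 1.20 (adjusted p from 1.2e-11 to 0.00022) in the authors' deposited table, on 2004 untreated reads. Cdh15, which encodes M-cadherin of muscle, had values between -0.05 and 0.13 in the authors' deposited table with 20.2 untreated reads and no call. Type I cadherins thus gave 2 higher calls of 5 at 2, 4 and 24 h and 3 at 8 h. Of all tested entries 5.55%, 16.1%, 25.7% and 11.5% were higher at 2, 4, 8 and 24 h.

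Type II cadherins, which mark subsets of neurons, mesenchyme and vessels, comprised genes that rose at every time and genes that were never called. Cdh11, which encodes the cadherin of mesenchyme and bone-forming cells, had the largest change of all 71 genes at 4, 8 and 24 h. The authors' deposited table gave it 2.64, 4.20, 4.30 and 3.84 at 2, 4, 8 and 24 h, or 6.23-, 18.3-, 19.8- and 14.3-fold, with adjusted p-values from 3.4e-23 to 8.4e-09, on 17.5 untreated reads. Cdh8, a cadherin of brain circuits, followed with 1.87, 3.10, 2.71 and 1.67 in the authors' deposited table (adjusted p from 3.1e-13 to 0.00017, 68.6 untreated reads). Cdh20 had 1.5, 2.06, 1.83 and 1.72 in the same order of times in the authors' deposited table, with adjusted p-values from 1.7e-06 to 0.0011. Cdh6, which encodes K-cadherin of the developing kidney, had 0.90, 1.57, 1.5 and 1.46 in the authors' deposited table, with adjusted p-values from 4.3e-06 to 0.017. These 4 genes were called higher at all 4 times.

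Other type II genes were called at a single time or never. Cdh12 was called at 4 h only, at 1.74 (adjusted p = 0.00097), and Cdh7 at 4 h only, at 1.03 (adjusted p = 0.017), in the authors' deposited table. Cdh24 was called at 8 h only, at 0.85 (adjusted p = 0.015) in the authors' deposited table, and with centring its value of 0.35 was below the fold threshold. Cdh10, Cdh22, Cdh9 and Cdh18, with 327.5, 246.2, 193.3 and 188.8 untreated reads, were not called at any time. Their log2 fold changes in the authors' deposited table ran from -0.41, for Cdh10 at 2 h, to 0.49, for Cdh22 at 8 h. Each of these 4 had more untreated reads than Cdh11 or Cdh8. Cdh5, which encodes VE-cadherin of blood vessels, lay between -0.08 and 0.18 in the authors' deposited table on 31.6 untreated reads, and Cdh19, a cadherin of the glial lineage, between -0.32 and 0.39 on 11.9.

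Among the other cadherins the long Cdh13 and Cdh23 genes rose at all 4 times. Cdh13 encodes T-cadherin, which lacks a tail and is held by a lipid anchor, and its entry of 1039.7 kb is the longest of the 71. The authors' deposited table gave Cdh13 values of 0.92, 2.02, 2.01 and 1.06 at 2, 4, 8 and 24 h, with adjusted p-values from 1.3e-08 to 0.019. Cdh23, which forms the tip links of hair cells together with Pcdh15, had 1.32, 2.08, 2.23 and 1.18 in the authors' deposited table, with adjusted p-values from 4.7e-12 to 0.00051. Its tip link partner Pcdh15 had -0.01, 0.32, 0.07 and -0.25 in the authors' deposited table on 50.8 untreated reads, with no call. Cdh16 of the kidney, Cdh17 of the intestine and Cdh26 had at most 9.16 untreated reads each and were not called, with values from -0.27 to 0.36 in the authors' deposited table.

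Protocadherins outside the clusters had the highest share of calls of the 4 classes. Of the 12 genes 6 were higher at 2 h and 8 at each of 4, 8 and 24 h. The share over all tested entries was 5.55%, 16.1%, 25.7% and 11.5% at these times. All 5 members of the delta-2 group, several of whose proteins carry a conserved motif that recruits actin regulators, were higher at 4, 8 and 24 h. Pcdh10 had 3.16, 3.77, 3.65 and 3.60 by the authors' deposited table at 2, 4, 8 and 24 h, or 8.94-, 13.6-, 12.5- and 12.1-fold, with adjusted p-values from 1.4e-16 to 2.8e-11 on 11.0 untreated reads. Pcdh17 had 2.61, 3.25, 2.92 and 2.61 in the authors' deposited table, with adjusted p-values from 1.7e-17 to 4.8e-11. Pcdh19, an X-linked gene that causes epilepsy in humans when mutated, had 2.54, 2.81, 3.00 and 3.01 in the authors' deposited table. It was the only one of the 35 genes called at any time that had its highest value at 24 h.

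Pcdh8, known as paraxial protocadherin for its role in the mesoderm that forms somites, had 1.99, 2.23, 2.37 and 2.29 in the authors' deposited table on 14.4 untreated reads, with adjusted p-values from 4.4e-06 to 0.00028. Pcdh18 was not called at 2 h, at 0.74 (adjusted p = 0.14), and had 2.35, 2.14 and 2.28 by the authors' deposited table at 4, 8 and 24 h (adjusted p at most 3.7e-06). In the delta-1 group, Pcdh7 had 2.05, 3.81, 3.27 and 2.66 in the authors' deposited table, with adjusted p-values from 1.7e-19 to 6.5e-06, on 16.3 untreated reads over 414.2 kb. Pcdh1, an adhesion protein of airway epithelium, had 0.83, 1.61, 2.17 and 1.40 in the authors' deposited table, with adjusted p-values from 2.8e-12 to 0.02. Pcdh11x, another X-linked gene, was called from 4 h on with 1.64, 1.13 and 1.34 in the authors' deposited table, after 0.84 at 2 h (adjusted p = 0.079). The remaining delta-1 gene Pcdh9 was not called, with 0.09 to 0.36 in the authors' deposited table. It had 398.3 untreated reads, the most of the 12. Pcdh12, which is known from endothelium, and Pcdh20 had 1.17 and 4.68 untreated reads and were not called, with Pcdh20 at 1.06 at 8 h (adjusted p = 0.072) in the authors' deposited table.

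**Figure D2:**
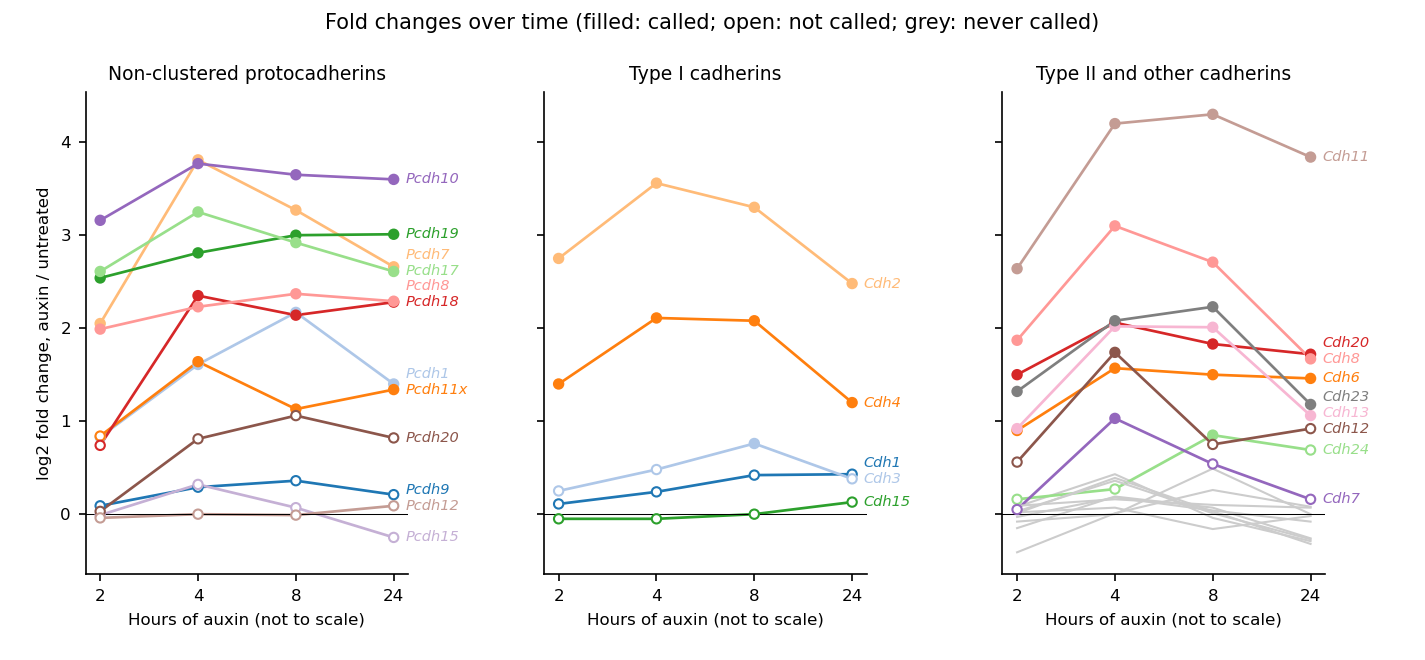
Log2 fold change (vertical axis) at 2, 4, 8 and 24 h of auxin (horizontal axis, evenly spaced) for the non-clustered protocadherins, type I cadherins, and type II and other cadherins, from the authors' deposited table, with filled points for calls. Cdh11 reaches 4.30 at 8 h and Cdh2 3.56 at 4 h, while Cdh1 stays at or below 0.43.

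Of the 35 genes called higher at some time, 0, 20, 14 and 1 had their highest log2 fold change at 2, 4, 8 and 24 h. The 24 h value lay below the 8 h value in 31 of them. Clustered protocadherins, whose entries may share reads, made up 15 of the 35. Of these 15, 7 were highest at 4 h and 8 at 8 h, and all 15 were lower at 24 h than at 8 h. Median log2 fold changes of the 35 genes were 0.52, 1.61, 1.13 and 1.06 at the 4 times. The 14 genes called at all 4 times had median log2 fold changes of 1.93, 2.52, 2.54 and 2.00, and 4 of these 14 had under 50 untreated reads. These comparisons share the untreated libraries, and the differences between times were not tested. The median over all entries was 0.11, 0.32, 0.44 and 0.19 at the 4 times, so that it too was lower at 24 h than at 8 h. The time of the highest value, the fall from 8 to 24 h and calls at all 4 times were not counted over all entries. This course is therefore not shown to be particular to the members.

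The Pcdha entries had the largest changes of the clustered genes at 4, 8 and 24 h, and both were called at these times. Pcdhac1 and Pcdhac2 encode the C-type isoforms, which are found in most neurons, whereas other Pcdha isoforms are chosen at random. Those other isoforms had no entry of their own, so their change was not measured. Pcdhac2 had 0.52, 2.14, 2.47 and 2.18 by the authors' deposited table at 2, 4, 8 and 24 h, with adjusted p-values of 0.30, 4.7e-07, 4.3e-09 and 4.0e-07. Pcdhac1 had 0.20, 1.72, 1.90 and 1.67 in the authors' deposited table, with adjusted p-values of 0.65, 1.4e-05, 1.4e-06 and 3.4e-05. Neither was called at 2 h, when Pcdh10, Pcdh17, Pcdh19 and Cdh2 had 2.54 or more in the authors' deposited table. The 97.5 kb Pcdhac1 entry had 70.1 untreated reads and the 43.7 kb Pcdhac2 entry 33.5. Since both isoforms end in the same constant exons, reads of Pcdhac2 may be counted in Pcdhac1 as well, and the pair need not be separate observations. If so, the 53.8 kb that only Pcdhac1 covers had 36.6 untreated reads and an implied log2 change of 1.06 at 8 h, which has no error.

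The Pcdhg cluster had the highest untreated level of the 3 clusters and small fold changes. Its 18 entries had 919.4 to 7126 untreated reads in PRC1deg cells, at 37.6 to 44.9 reads per kilobase, close to the level of Cdh3. Their log2 fold changes in the authors' deposited table ran from 0.08 to 0.18, 0.32 to 0.69, 0.49 to 0.72 and 0.29 to 0.38 at 2, 4, 8 and 24 h. At 4 h 9 of the 18 were called and at 8 h 13, and 0 at 2 and 24 h. Over all tested entries 16.1% were higher at 4 h and 25.7% at 8 h. The calls lay at the edge of the threshold: at 4 h their adjusted p-values ran from 0.044 to 0.049 in the authors' deposited table, with Pcdhga8 just inside at 0.049 and Pcdhga3 just outside at 0.051. At 8 h Pcdhga3 lay inside at 0.049 and Pcdhga2 outside at 0.053 in the authors' deposited table. The highest values were 0.18 at 2 h and 0.72 at 8 h for Pcdhga9 and Pcdhga10, 0.69 at 4 h for entries such as Pcdhgb2, and 0.38 at 24 h for Pcdhga10, in the authors' deposited table. With fold changes centred on the median of entries with 50 or more reads, Pcdhgb2 had 0.29 at 4 h and Pcdhga10 0.22 at 8 h, and no Pcdhg call was left.

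The 18 Pcdhg entries need not be 18 separate measurements. Ordered by length, from the 22.3 kb Pcdhgc5 to the 179.9 kb Pcdhga1, each longer entry had more untreated reads than the one before, in 17 of 17 steps in PRC1deg and 17 of 17 in PRC2deg cells. Entries of the cluster end in the same constant exons, so a read there can be counted for every one of them, and no source used here states the counting rule. If entries are counted over their whole span, the difference between successive entries gives the reads of the segment that only the longer one covers. The untreated density of these segments varied from 14.9 reads per kilobase, between the Pcdhga7 and Pcdhga6 starts, to 71.7, at the outer end between Pcdhga2 and Pcdhga1, in PRC1deg cells. PRC2deg cells, which were normalised separately, likewise had their highest density in the outermost segment, at 50.8 reads per kilobase.

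**Figure D3:**
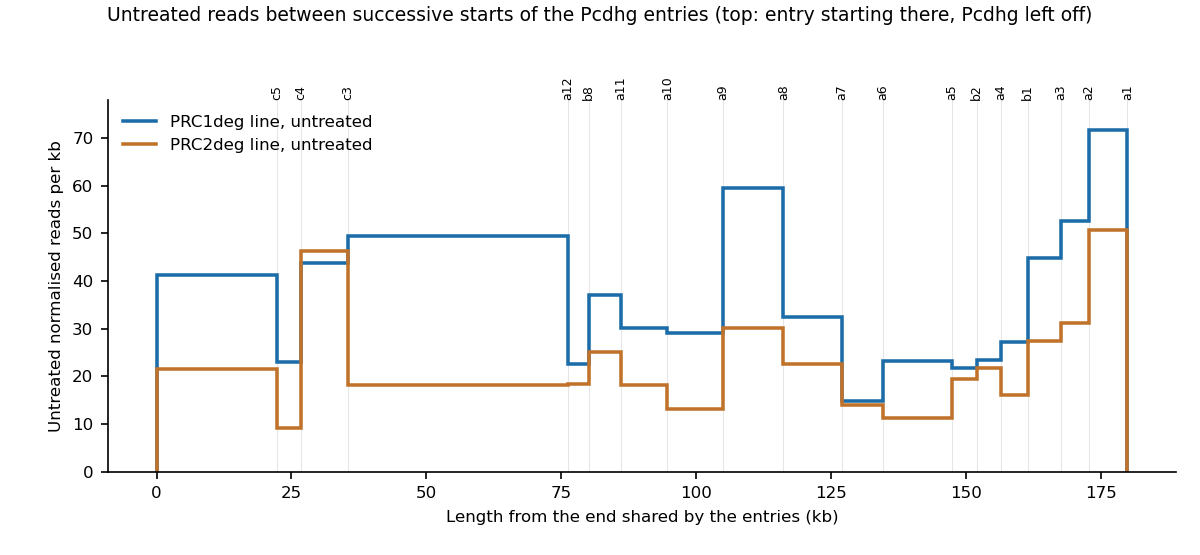
Untreated normalised reads per kilobase (vertical axis) in each segment between successive starts of the Pcdhg entries, against length from the shared end in kb (horizontal axis), for both lines. Both lines peak in the outermost segment, at 71.7 in PRC1deg and 50.8 in PRC2deg cells, and the lines were normalised separately.

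Within the Pcdhg cluster the 3 C-type entries had lower values than the 15 longer ones at 4 and 8 h. Pcdhgc3, Pcdhgc4 and Pcdhgc5 had 0.42, 0.32 and 0.32 by the authors' deposited table at 4 h, where the 15 Pcdhga and Pcdhgb entries ran from 0.59 to 0.69. At 8 h the C-type entries ran from 0.49 to 0.54 and the others from 0.61 to 0.72 in the authors' deposited table. At 24 h the C-type entries ran from 0.29 to 0.30 and the others from 0.29 to 0.38 in the authors' deposited table. Applied to the reads of each segment, the deposited fold changes imply a log2 change at 4 h of 0.32 in the 22.3 kb of Pcdhgc5, 0.70 in the 40.8 kb between the Pcdhgc3 and Pcdhga12 starts and 0.57 in the outermost segment. The implied values of single segments ran from 0.20, between the Pcdhgb1 and Pcdhga3 starts, up to 1.22, between Pcdhga5 and Pcdhgb2, where 101.1 untreated reads lie. These implied values have no error, and the difference between C-type and other entries was not tested.

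**Figure D4:**
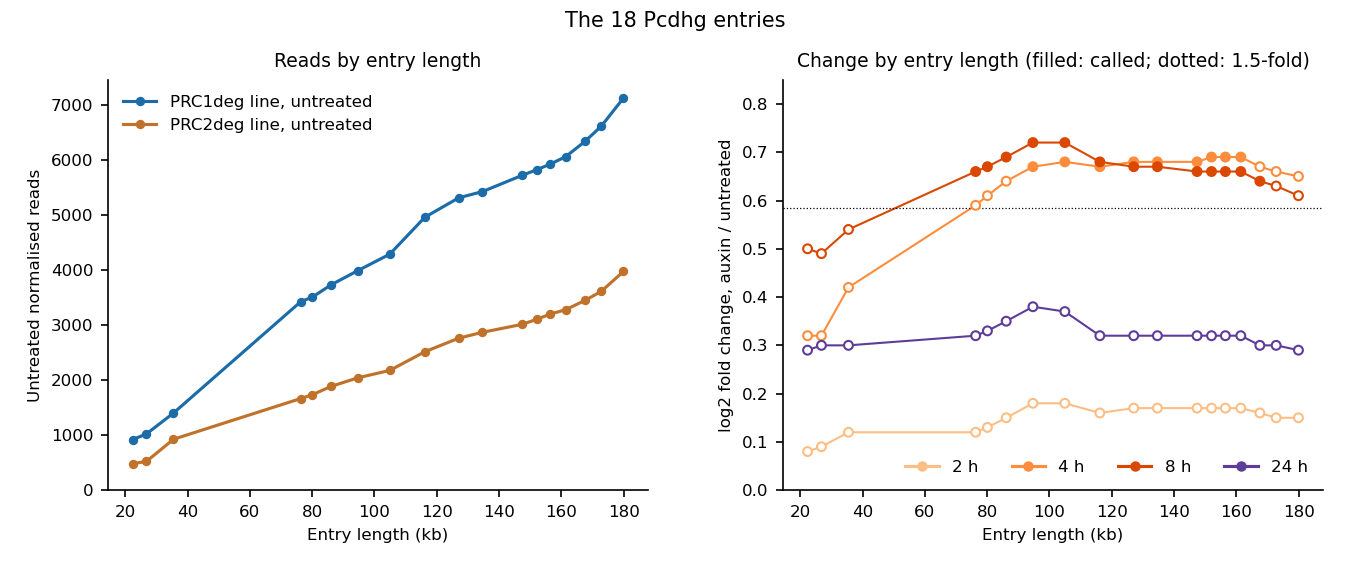
Left, untreated normalised reads of the 18 Pcdhg entries against entry length in kb, in both lines. Right, log2 fold change against entry length at 2, 4, 8 and 24 h of auxin from the authors' deposited table, with filled points for calls and a dotted line at 1.5-fold; the shortest entry lies at 0.32 and the longest at 0.65 at 4 h.

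The Pcdhb genes had few reads and no calls. Their 16 entries are 2.46 to 5.27 kb long and had a median of 3.52 untreated reads, with the most, 22.3, in Pcdhb14 and the fewest, 0.47, in Pcdhb13. By the authors' DESeq2 values 0 were called at any time, and 8 of the 16 had no adjusted p by the authors' deposited table at 8 h. Pcdhb1 had the highest values, 1.27 at 4 h (adjusted p = 0.071) and 1.36 at 8 h (adjusted p = 0.063) in the authors' deposited table, and Pcdhb18 had 1.17 at 8 h (adjusted p = 0.054). Pcdhb18 also stood highest at 24 h, where the authors' deposited table gave it 0.83. The lowest values at 2, 4, 8 and 24 h were -0.10 for Pcdhb2, -0.23 for Pcdhb15, -0.10 for Pcdhb5 and -0.06 for Pcdhb13 in the authors' deposited table. Among all entries with under 10 untreated reads that had an adjusted p, 20.5% were called higher at 4 h and 27.5% at 8 h. The number of such entries fell from 2934 after 2 h of auxin to 1775 after 4 h and then to 1389. Which entries kept an adjusted p may depend on their reads after auxin. These shares therefore cannot show whether few calls among the members are unusual. Of the 20 members with under 10 untreated reads, 15 of them Pcdhb genes, 0 were called at any time, though only 15 had an adjusted p at 4 h and 10 at 8 h. Pcdhb genes resemble each other in sequence, so reads may have been lost or shared between them, which was not tested.

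**Figure D5:**
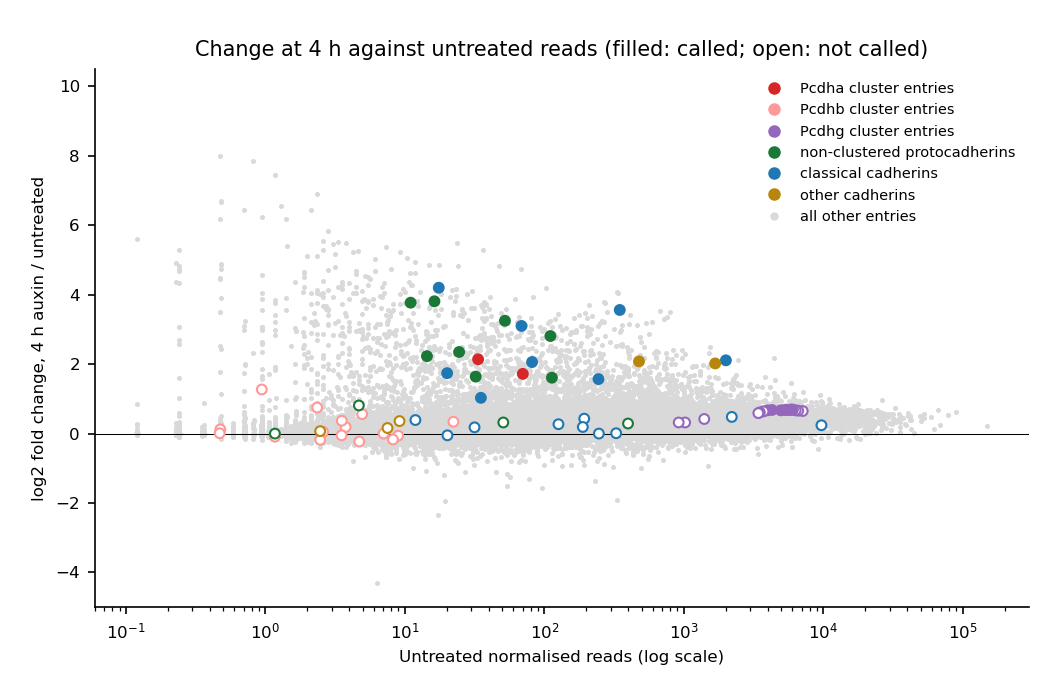
Log2 fold change at 4 h of auxin (vertical axis) against untreated normalised reads (horizontal axis, log scale) for the 71 genes, coloured by class and filled where called, over all other entries in grey, leaving out entries with 0 untreated reads. The 15 longer Pcdhg entries gather at 0.59 to 0.69 on the right, and Cdh11 stands highest of the 71 at 4.20 with 17.5 reads.

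Of the 4 classes, non-clustered protocadherins had the highest median at every time. Clustered protocadherins had median log2 fold changes of 0.14, 0.60, 0.65 and 0.31 at 2, 4, 8 and 24 h. Non-clustered protocadherins had 0.84, 1.93, 2.16 and 1.84. Classical cadherins had 0.14, 0.46, 0.65 and 0.41, and the 5 other cadherins 0.09, 0.36, 0.10 and 0.07. The medians of all entries were 0.11, 0.32, 0.44 and 0.19. Clustered protocadherins gave 0, 11, 15 and 2 higher calls of 36, non-clustered ones 6, 8, 8 and 8 of 12, and classical cadherins 6, 8, 8 and 6 of 18. Among clustered entries with an adjusted p these were 0%, 34.4%, 53.6% and 6.25%, beside 5.55%, 16.1%, 25.7% and 11.5% of all tested entries. Of the clustered calls, 9 of 11 at 4 h and 13 of 15 at 8 h were Pcdhg entries, which may share reads. The clustered shares at these times may therefore count 1 locus many times. The shares were 50.0%, 72.7%, 72.7% and 72.7% for non-clustered ones and 33.3%, 44.4%, 44.4% and 33.3% for classical cadherins. Counting the Pcdhg cluster and the Pcdha pair once each, by their longest entry, left 19 calls at 4 h and 19 at 8 h among all members. Of these longest entries Pcdhga1 was not called at any time, and Pcdhac1 was called at 4, 8 and 24 h. Pcdhac1 was then the only clustered entry called. Differences between the classes were not tested, because the entries of a cluster may share reads and no values per library are held.

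Genes of 4 further lists were counted against the 5.55%, 16.1%, 25.7% and 11.5% of all tested entries that were higher at 2, 4, 8 and 24 h. Other cadherin superfamily genes (Fat, Dachsous, Celsr, desmosomal, calsyntenin and Cdhr families, and Ret) were measured for 21 symbols. Of these, 3, 5, 7 and 7 passed the test upward at 2, 4, 8 and 24 h and 0 downward by the authors' DESeq2 values. Of all 21, including genes without an adjusted p, 14.3%, 23.8%, 33.3% and 33.3% were thus higher. The list's medians were 0.13, 0.27, 0.49 and 0.30, and Ret was among the genes called at every time. The giant cadherins Fat3 and Fat4 had 2.88 and 3.17 by the authors' deposited table at 4 h (adjusted p of 7.6e-15 and 4.0e-14), and Dchs1, the ligand of Fat4, had 2.76 (adjusted p = 2.1e-13). Clstn2, a calsyntenin of synapses, had 1.80 by the authors' deposited table at 4 h (adjusted p = 3.3e-07). Of 17 catenins and junction partners 1, 1, 3 and 2 were higher and 0 lower by DESeq2, or 5.88%, 5.88%, 17.6% and 11.8%, near or below the share of all entries, with list medians of 0.14, 0.41, 0.49 and 0.11, and only the neural delta-catenin gene Ctnnd2 was called at every time, with 1.10, 1.90, 1.66 and 0.98 in the authors' deposited table. The beta-catenin gene Ctnnb1 had 0.15 to 0.47 in the authors' deposited table, with no call.

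Transcription factors of the epithelial to mesenchymal transition, several of which repress Cdh1 in other cells, were counted in the same samples. Of 9 such genes 5, 5, 6 and 6 passed the test upward at 2, 4, 8 and 24 h and 0, 0, 0 and 1 downward, or 55.6%, 55.6%, 66.7% and 66.7% higher, with list medians of 1.08, 1.91, 1.39 and 1.38. Twist2 had 4.15, Prrx1 4.69, Twist1 4.02 and Zeb2 2.36 by the authors' deposited table at 4 h, with adjusted p-values from 1.9e-27 to 3.9e-13. Zeb1 was lower at 24 h, at -1.33 (adjusted p = 9.5e-05) in the authors' deposited table. Of 16 measured regulators of the protocadherin clusters, such as the architectural factor CTCF and the cohesin subunits, 0, 1, 3 and 1 were higher and 0 lower by DESeq2, at most 18.8% and below the share of all entries at each time, with list medians of 0.16, 0.44, 0.47 and 0.18. Ctcf had 0.72 by the authors' deposited table at 4 h (adjusted p = 0.042), and Dnmt3b, a DNA methyltransferase, 0.88 at 8 h (adjusted p = 0.0021).

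Markers of other cell types were counted against the same shares of all entries, 5.55%, 16.1%, 25.7% and 11.5%. Among 7 neural progenitor markers 4, 5, 5 and 5 passed upward at 2, 4, 8 and 24 h, of 7 primitive endoderm markers 5, 7, 7 and 6, and of 5 measured trophoblast markers 3 at each time. Mesenchyme markers gave 2, 3, 4 and 3 higher and 1, 1, 0 and 0 lower calls of 7, and endothelial markers 1, 1, 2 and 1 higher and 0, 0, 0 and 1 lower of 7. The endothelial counts are 14.3%, 14.3%, 28.6% and 14.3% of the list, near the share of all entries at 4, 8 and 24 h. Their summed untreated reads in PRC1deg cells were 647 for the neural, 1028 for the endoderm, 669 for the trophoblast, 46791 for the mesenchyme and 4531 for the endothelial list. Twist1 and Prrx1 stand both in the mesenchyme list and in that of transition factors. Cdx2 of the trophoblast list was listed at 0 in untreated PRC1deg cells. The part of any such cells in the rise of Cdh2, Cdh11 or the delta-2 protocadherins was not tested.

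No member passed the test after 2 h of dTAG-13 by the authors' DESeq2 values. Of the 71 genes 69 had a fold change in the PRC2deg table, and 0 were called, as were 0% of all entries. The largest log2 fold change of a member in the authors' deposited table was 4.3e-05 in size, with the smallest adjusted p at 0.999956, and over all entries the largest was 0.000985. All fold changes of that table thus lie close to 0, and they are not set beside those of PRC1deg cells. Whether they were shrunken is not stated, so they need not show a lack of change. Pcdhb10 and Pcdhb13 were listed at 0 untreated reads there. In untreated PRC2deg cells 44 of the 71 genes had 50 or more reads. Cdh1 again had the highest untreated level, at 297.3 reads per kilobase, followed by Pcdh1 at 59.1 and Cdh3 at 45.9, and the Pcdhg entries lay between 19.5 and 26.1.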

How the data were processed

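Nuclear RNA-seq of 21 libraries in 7 groups was analysed from 5 comparison tables of 20633 entries each. The log2 fold changes and adjusted p-values were deposited by the authors, and per the file names they come from DESeq2 after spike-in normalisation. Bowtie2, STAR, SAMtools, bedtools and DESeq2, with builds mm10 and dm6, are named in the submitters' processing notes; no source used here gives versions, counting rule or annotation. The untreated column, headed as a mean RPKM per the file headers, was used as signal in normalised reads per kilobase as deposited: times entry length (also deposited) it sums to 30450536 and 29474239 in the 2 lines and not to a fixed scale. The lines were normalised separately. Tests are the authors' own; nothing was refitted.

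No source used here states whether the fold changes were shrunken. The middle 50% of tested entries with under 10 untreated reads ran from -0.0197 to 0.096 at 2 h and from 0.0929 to 1.48 at 8 h. That of entries with 50 or more ran from 0.0486 to 0.252 and from 0.351 to 0.649. Entries without an adjusted p are left out. Those tested with under 10 reads numbered 2934 at 2 h and 1389 at 8 h, so their ranges at these times cover different entries. Values near 0 of entries with few reads need not show a lack of change. Python 3.11.15, numpy 2.4.6, pandas 2.3.3 and matplotlib 3.10.9 were used, and calling, centring and segment arithmetic were tested on simulated data. Members and lists were chosen with earlier results of these data known. By rule, values are given for members outside the clusters that were called or had 50 or more untreated reads, for Cdh1, Cdh2 and Cdh3, for C-type cluster members and those with the most and fewest reads and the highest and lowest change, and for up to 4 called genes per other list by adjusted p at 4 h. Cdh5, Cdh15, Cdh16, Cdh17, Cdh19, Cdh26, Pcdh12, Pcdh20, Ret, Ctnnb1, Zeb1, Dnmt3b and further Pcdhg entries were added after their values were seen. Alternatives were stricter or looser thresholds, a read minimum, centring and other entries per symbol. Mouse sequences and coordinates were not used here.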

Additional observations from a re-analysis of the deposited data

How the results depend on the processing

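Counts of members called higher changed by over 1.5 times in these cases. With an adjusted p under 0.01 they were 19 at 4 h and 17 at 8 h (9.69% and 13.1% of all entries). With a fold over 2, 18 were left at 8 h, and with centring on the median of entries with 50 or more reads also 18 at 8 h, against 11.6% and 10.7% of all entries. With members of 50 or more untreated reads only, 11 were left at 24 h. With nested cluster entries counted once, an alternative chosen after the data were seen, 19 were left at 4 h and 19 at 8 h. These are calls among fewer than 71 members, against 16.1% and 25.7% of all tested entries, which were not merged. At 2 h the count lay between 10 and 14 under every alternative run, and counts of lower calls were 0 throughout, as were all PRC2deg counts. The 3 alternatives on which entry stands for a symbol changed nothing, since each symbol has 1 entry.

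Class medians at 2, 4, 8 and 24 h moved as follows. With centring, clustered protocadherins had -0.01, 0.20, 0.15 and 0.07, non-clustered ones 0.68, 1.53, 1.66 and 1.60, classical cadherins -0.02, 0.06, 0.15 and 0.17, and other cadherins -0.06, -0.04, -0.40 and -0.18, so that the sign turned for 3 classes at 2 h and for other cadherins at all times. With 50 or more reads, clustered ones had 0.16, 0.67, 0.66 and 0.32, non-clustered ones 0.83, 1.61, 2.17 and 1.40, classical cadherins 0.21, 0.46, 0.81 and 0.56, and the 2 other cadherins left 1.12, 2.05, 2.12 and 1.12. Counting nested entries once gave clustered medians of 0.00, 0.09, 0.17 and 0.14. Among the named members, centring ended 8 calls, 6 of them in Pcdhg and 1 each in Cdh3 and Cdh24, reversed none, and turned the sign of 37 values that were not called. Leaving out replicates could not be run, since the tables hold no values per library. No paired analysis was possible because the tables hold only comparisons of groups. The 16 Pcdhb genes had a median of 3.52 untreated reads, and 8 of them had no adjusted p at 8 h.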
